A study of Mus musculus with 5 samples.

Results

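Bone passage 6 is the final, bone-seeking derivative of the mouse mammary tumour line NT2.5, and its array was set against the 4 other arrays of the series. A gene was counted where its log2(intensity + 16) on bone passage 6 lay at least 1, which is 2-fold on that scale, above the highest or below the lowest of the other arrays. That distance is called the gap, and it is negative where bone passage 6 was the lower side. Of 12609 genes measured, 61 (0.484%) were counted, 11 (0.0872%) above the range and 50 (0.397%) below it. After quantile normalization, which gives every array the same distribution of values, 13 (0.103%) lay above and 37 (0.293%) below, and 10 and 36 of the original genes were among these.

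The series holds total RNA of NT2.5 cells, a line grown from tumours of neu-transgenic mice, and of sub-lines obtained from it for their site of metastasis. The 5 arrays held 1 sample each. The parental cells are labelled as preferring bone, liver and lung. Passages 3 and 6 of the bone sub-line were sampled, as were passages 1 and 3 of the one from liver, each labelled with its own organ as preference. The labels give both bone arrays as passages of 1 bone sub-line, so these were not taken as independent isolates. Bone passage 6 had no replicate, and the 4 other arrays are 3 different cell populations rather than replicates of a control, so no difference here has a replicate check. No test was run: a permutation of 1 array against 4 could not give a one-sided p under 0.2. The genes were selected by the values reported, which are therefore a description.

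Interferons bind receptors on the cell surface and, through Janus kinases, activate transcription factors such as Irf9, whose complex binds a repeated GAAA element and switches on antiviral genes. Many epithelial cells carry a standing low level of these transcripts without infection. The actin cytoskeleton is tied to the membrane by linkers such as Marcks, a protein kinase C substrate, the adducins and dystrophin, and these set cell shape and movement.

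The mean intensity trimmed by 2% at each end was 150 on all 5 arrays. The median intensity was 21.9 on bone passage 6 and 24.6 to 26.4 on the other arrays, so its dim probe sets read lower throughout, and quantile normalization was run as the check. The 5'/3' ratios of the control probe sets lay between 0.842 and 0.927 for actin and between 1.24 and 1.33 for Gapdh. Pearson's r with bone passage 6, taken across genes that are no independent replicates, was 0.979 for bone passage 3 and 0.953 to 0.964 for the other arrays. The epithelial keratins were abundant on every array, with Krt8 at 3406 to 4829 and Krt18 at 5918 to 7880, and the probe set of the receptor gene Erbb2 read 212 to 342.

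**Figure D1:**
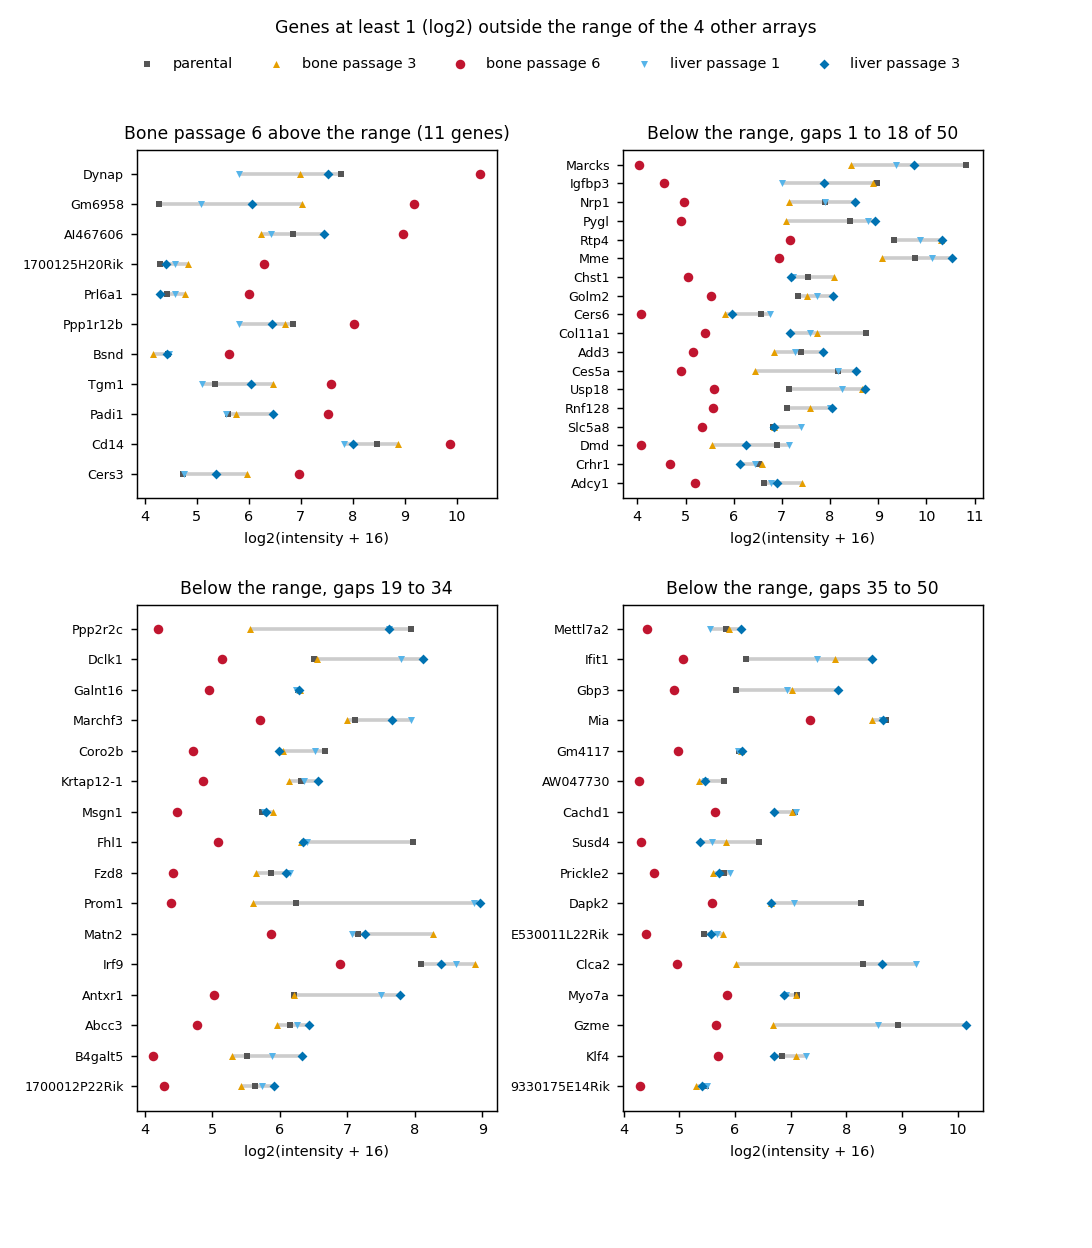
Level of each of the 61 genes on the 5 arrays, as log2(intensity + 16) on the horizontal axis, 1 line per gene ordered by gap; the grey bar spans the 4 other arrays and the red circle is bone passage 6. The circle sits right of the bar for 11 genes, led by Dynap with a gap of 2.68, and left of it for 50, led by Marcks with a gap of -4.41.

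Genes above the range were few and included enzymes of the epidermal barrier. Dynap, which encodes a membrane protein that binds dynactin, read 204 on the parental array, 111 on bone passage 3, 1389 on bone passage 6, 40.5 on liver passage 1 and 169 on liver passage 3. On the scale of intensity + 16, bone passage 6 was 6.40-fold above the next array, the parental one, a gap of 2.68 (2.60 after quantile normalization). The lowest of the 11 gaps was 1.01 and the median 1.18.

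Tgm1, the transglutaminase that crosslinks the cornified envelope of skin, read 25 and 72.3 on the parental and bone passage 3 arrays, 175 on bone passage 6, and 18.2 and 50.2 on liver passages 1 and 3. Padi1, which converts arginine to citrulline in keratins and other skin proteins, read 32.2, 38, 169, 31.4 and 72.8 in the same order. Cers3, the ceramide synthase of the epidermal water barrier, read 10.5, 46.5, 109.7, 10.9 and 25.4. For Tgm1 and Cers3 bone passage 3 was the next array, and for Padi1 it was liver passage 3. Their gaps were 1.12, 1.01 and 1.05. A list of cornified envelope and barrier genes, written after these values were seen, had 32 members measured. Besides Tgm1 and Padi1, which prompted the list, 6 of 30 lay above the range by any amount (17.2% of all genes did).

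Cd14, the co-receptor for bacterial lipopolysaccharide, read 336 on the parental array, 450.2 on bone passage 3, 928 on bone passage 6, and 212 and 242 on liver passages 1 and 3. Both bone arrays were above the other three, and the gap was 1.02, or 0.97 after quantile normalization, where it no longer counts. Cd14 is also a myeloid gene, and the 21 macrophage markers with a probe set summed to 389 on bone passage 6 against 351 to 1110 elsewhere. None of these markers was at 0 on all arrays. The pan-leukocyte gene Ptprc read 9.4 on bone passage 6 and 6.1 to 25.7 elsewhere, and the part of such cells in the Cd14 value was not tested. In RNA of whole cultures, fewer cells of a kind and less RNA per cell cannot be told apart.

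Ppp1r12b, a regulatory subunit of myosin phosphatase, read 99.0, 87.8, 245, 40.4 and 70.8 in array order and had a gap of 1.18. Its further probe sets gave 0.10 and -0.05, and the mean of its probe sets gave 0.33, so the call rests on 1 probe set. Bsnd, the barttin subunit of chloride channels, and Prl6a1, a hormone of the prolactin family, were dim, at 32.9 and 47.9 on bone passage 6 and under 12 elsewhere. The remaining 3 genes carry only RIKEN, expressed-sequence or predicted names, with gaps of 1.45 to 2.14. Bone passage 3 was the highest of the other arrays for 6 of the 11 genes, and 3 of the 11 entered the gene set only because bone passage 6 reached the intensity filter. Without the bone passage 3 array, 53 genes rather than 11 lay above the range.

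Genes below the range were led by Marcks, which links actin filaments to the plasma membrane. It read 1804 on the parental array, 332 on bone passage 3, 0.4 on bone passage 6, 648 on liver passage 1 and 841 on liver passage 3. The next array was bone passage 3, at a gap of -4.41 (-4.40 after quantile normalization), the widest gap of the 61. All 6 of its probe sets that passed the filter read lowest on bone passage 6, at 0.3 to 8.3, and each was below the range by 1.37 or more. No reading on the 4 other arrays was under 46.8 for any of these probe sets.

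Igfbp3, which binds insulin-like growth factors in the extracellular space, read 490.3 and 459 on the parental and bone passage 3 arrays, 7.6 on bone passage 6, and 112 and 218 on liver passages 1 and 3. Here the parental and bone passage 3 arrays were the highest, and the nearest array was liver passage 1, at a gap of -2.43. A further probe set of Igfbp3 gave -2.51. The growth factor Igf1 itself was dim, at 1.3 on bone passage 6 and 12 to 43.1 elsewhere, with a gap of -0.69.

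**Figure D2:**
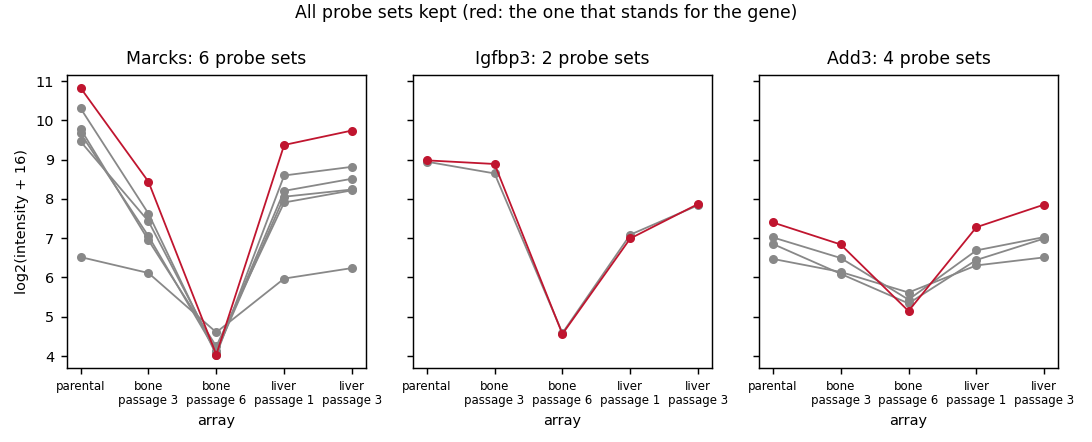
All probe sets above the intensity filter for Marcks, Igfbp3 and Add3, with log2(intensity + 16) against the 5 arrays; 1 line is 1 probe set, and the red line is the one that stands for the gene. Every line has its lowest point at bone passage 6, and the gap runs from -1.37 to -4.41 for Marcks, from -2.43 to -2.51 for Igfbp3 and from -0.52 to -1.70 for Add3.

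Several genes below the range encode cell surface proteins. Mme, the membrane metallopeptidase neprilysin, read 849 and 525 on the parental and bone passage 3 arrays, 106 on bone passage 6, and 1101 and 1461 on liver passages 1 and 3. Nrp1, a co-receptor for semaphorins and vascular growth factors, read 220.4, 125, 15.1, 222 and 349 in that order. Both were lowest of the other arrays on bone passage 3, and the gaps were -2.14 and -2.18.

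Prom1, a pentaspan protein of membrane protrusions and a stem cell marker, read 59.6, 32.4, 4.9, 453 and 485. The liver arrays were the high ones, and the gap of -1.21 is to bone passage 3. The Wnt receptor Fzd8 had a gap of -1.23, the hormone receptor Crhr1 one of -1.46, and the lactate and butyrate transporter Slc5a8 one of -1.49. Among cell surface genes named after their values were seen, the collagen-binding receptor Antxr1 had a gap of -1.19, the organic anion exporter Abcc3 one of -1.18, Cachd1, a relative of calcium channel subunits, one of -1.07, Susd4, a regulator of complement, one of -1.06, and Clca2 one of -1.05. Cachd1, Susd4 and Clca2 were at -0.90, -0.94 and -0.90 after quantile normalization, where they no longer count. The call for Crhr1 rests on 1 probe set: its other one lay inside the range, and their mean gave -0.71.

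Nrp1 and Mme are made by endothelium or stroma as well as by epithelium. The 12 endothelial markers summed to 252 on bone passage 6 and to 387 to 443 elsewhere, and the 16 markers of fibroblasts and marrow stroma to 516 against 428 to 657. S100a4 made up 230 of the 516 and read 29.8 to 154.8 elsewhere. Pdgfra read 48.8 on bone passage 6 (71.6 to 138.3 elsewhere) and Postn 56.7 (82 to 223.8). Of the 8 stromal markers above the intensity filter, 3 lay below the range by any amount and 1 above (26.0% and 17.2% of all genes did). After quantile normalization 2 lay below and 2 above. The defining endothelial genes Pecam1 and Cdh5 read 1.9 to 6.1 and 11.3 to 23.5 over the 5 arrays. The receptor gene Flt1 read 206, 99.3, 65.5, 179 and 162 in array order. On bone passage 6, Kdr read 41 (43.8 to 75.2 elsewhere) and Cldn5 4.8 (10.3 to 29.5). Plvap read 43.3 there (21.2 to 113.4 elsewhere) and Eng 58.7 (21.2 to 66.6), both inside the range. Of the 5 endothelial markers above the intensity filter, 3 lay below the range by any amount (26.0% of all genes did). After quantile normalization 2 lay below and 1 above, against 19.3% and 19.6% of all genes. All arrays read under 100 for 3 of the 5. No marker of either list was at 0 on all arrays. The part of such cells in the values of Nrp1 and Mme was not tested.

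Single matrix and secreted proteins lay below the range. Col11a1, a chain of fibrillar collagen, read 415 on the parental array, 196 on bone passage 3, 26.5 on bone passage 6, 175 on liver passage 1 and 127 on liver passage 3, a gap of -1.75. The matrix protein Matn2 read 126, 293, 42.4, 119 and 137, so that bone passage 3 was the highest array and bone passage 6 the lowest. Mia, a small secreted protein named after its value was seen, read 334 to 405 on the 4 other arrays and 148 on bone passage 6, a gap of -1.10. In the list of collagens and matrix glycoproteins, to which Matn2 belongs, 1 of 43 members lay below the range by at least 1 and 14 by any amount (32.6%, against 26.0% of all genes), and 10 after quantile normalization (23.3%, against 19.3%).

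Single enzymes of sugar, lipid and glycogen metabolism lay below the range, while the fixed lists nearest to them did not stand out: by any amount 20.7% of hypoxia and glycolysis genes and 16.7% of lipid uptake, storage and oxidation genes lay below, against 26.0% of all genes. Pygl, the liver form of glycogen phosphorylase, read 326 and 119.6 on the parental and bone passage 3 arrays, 14.2 on bone passage 6, and 428 and 474 on liver passages 1 and 3, a gap of -2.17. Chst1, which adds sulfate to keratan chains, had a gap of -2.14, and Galnt16, which starts mucin-type sugar chains, one of -1.29. B4galt5, a galactosyltransferase of glycolipids named after its value was seen, had a gap of -1.18. The carboxylesterase Ces5a had a gap of -1.55.

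Ceramide synthases lay on both sides. Cers6, which makes ceramides with shorter acyl chains, read 79.3, 40.7, 0.8, 91.4 and 46.7 in array order, a gap of -1.75. Cers3, described above, read highest on bone passage 6. Of the other ceramide synthases with a probe set, Cers2 had a gap of -0.28, while Cers4 and Cers5 lay inside the range.

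Signalling and regulatory genes below the range included Adcy1, an adenylyl cyclase, with a gap of -1.43, and Ppp2r2c, a regulatory subunit of protein phosphatase 2A, with one of -1.35. Ppp2r2c read 231 on the parental array, 31.0 on bone passage 3, 2.4 on bone passage 6, and 181 and 180.1 on liver passages 1 and 3, so both bone arrays were low. The ubiquitin ligases Rnf128 and Marchf3 had gaps of -1.53 and -1.28, and Golm2, a Golgi membrane protein, one of -1.79. Among transcription factors, Msgn1 had a gap of -1.26 and Klf4 one of -1.01, which was -0.84 after quantile normalization. Krtap12-1, a hair keratin-associated protein, had a gap of -1.27, and Gzme, a granzyme, one of -1.02 (-0.90 after quantile normalization). Named after their values were seen, Dapk2, a death-associated kinase, had a gap of -1.06, Prickle2, a planar polarity protein, one of -1.06, and Mettl7a2 one of -1.13. Dapk2 and Prickle2 were at -0.89 and -0.91 after quantile normalization. The remaining 5 genes carry RIKEN, expressed-sequence or predicted names.

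Most genes below the range were near the floor on bone passage 6: its intensity was under 25.1, the median of all values, for 35 of the 50. For 16 of the 50, every other array read 100 or more, and for 17 none did. Bone passage 3 was the lowest of the other arrays for 25 of the 50, and without that array 111 genes rather than 50 lay below the range. Without the parental array 77 did. The 4 other arrays differed among themselves more for these genes than for most, with a median SD of 0.44 on the log2 scale against 0.23 over all genes.

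The counting rule was applied to the brightest probe set of each gene, and the further probe sets were read beside it. They come from the same RNA on the same arrays, so they check the probe set and are no replicate of the sample. Of the 50 genes below the range, 22 had 33 further probe sets, of which 30 lay below the range by any amount and 11 by at least 1. Over the further probe sets of all genes, the shares were 28.6% and 0.25%. A further 2 lay inside the range and 1 above it. With the mean of a gene's probe sets, 10 of the 50 no longer counted: Crhr1, Ppp2r2c, Dclk1, Marchf3, Fhl1, Matn2, Antxr1, Cachd1, Susd4 and Klf4, at gaps of -0.50 to -0.93. For the genes above the range, 3 had 4 further probe sets, of which 3 lay above it, 1 of them by at least 1, and 1 below (15.7% and 0.0499% of all further probe sets lay above by any amount and by at least 1).

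The nearest genes on either side of the threshold had gaps close to those of the members. Just past it lay Cers3, Cd14 and Padi1 above the range, and Gzme, Klf4 and a RIKEN gene below it. Just short lay Myb at 0.98, Lao1 at 0.97 and Snhg3 at 0.96 above, and Themis at -0.99, Pilra at -0.97 and a RIKEN gene at -0.95 below. Myb, Lao1, Snhg3 and Vim fell short here and passed the threshold after quantile normalization.

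Many genes of the interferon lists, which also hold ligands, receptors and sensors, read lower on bone passage 6 than on any other array. Of 136 genes on the interferon lists, 98 were measured, and 58 of them (59.2%) lay below the range by any amount, against 26.0% of all genes. None lay above it, against 17.2% of all genes. After quantile normalization 49 lay below and 3 above, against 19.3% and 19.6% of all genes. Of the 98, 25 read under 100 on all 5 arrays. The median difference between bone passage 6 and the mean of the other arrays was -0.48 for the 98 genes and -0.05 for all genes.

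Below the range by at least 1 were 5 of the 98 (0.397% of all genes were), namely Rtp4, Usp18, Irf9, Ifit1 and Gbp3. Rtp4, a receptor transporter with antiviral activity, read 625 on the parental array, 1240.2 on bone passage 3, 129 on bone passage 6, 912 on liver passage 1 and 1267 on liver passage 3, a gap of -2.15. Usp18, which strips the ubiquitin-like protein Isg15 from its targets and dampens the interferon receptor, read 125, 387, 32.3, 289.9 and 405, a gap of -1.55. In both the parental array was the next lowest and bone passage 3 read about as high as liver passage 3.

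Irf9, the DNA-binding subunit of the interferon-activated complex, read 257, 461, 103, 375 and 319 in the same order, a gap of -1.20. Ifit1, which binds viral RNA that lacks host cap methylation, read 57.1, 207, 17.6, 162 and 335, a gap of -1.12. Gbp3, a guanylate-binding GTPase named after its value was seen, read 48.7, 114, 13.8, 107 and 214, a gap of -1.12. After quantile normalization the gaps of Ifit1 and Gbp3 were -0.98 and -0.97, so that 3 of the 98 counted. Bone passage 3 was the highest array for Irf9, and liver passage 3 for Ifit1 and Gbp3. The parental array was the lowest of the others for all 5 genes, and without it 18 interferon genes rather than 5 lay below the range by at least 1.

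**Figure D3:**
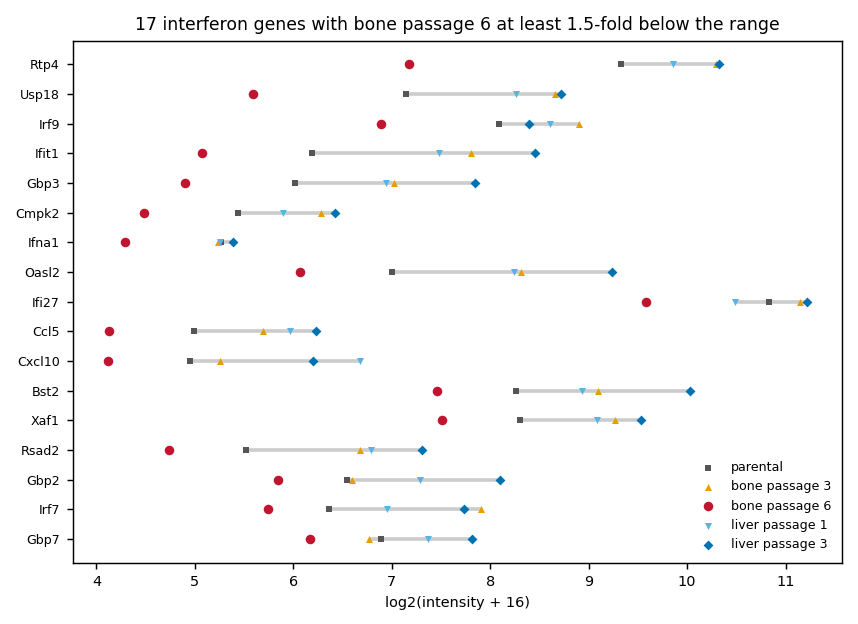
Level of the 17 interferon genes that lay at least 1.5-fold below the range, as log2(intensity + 16) on the horizontal axis; the grey bar spans the 4 other arrays and the red circle is bone passage 6. The genes run from Rtp4, with a gap of -2.15, to Gbp7, with one of -0.60, and the parental array (grey square) is the nearest neighbour of bone passage 6 in most of them.

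By role, 5 of 8 ligands and receptors and 5 of 8 nucleic acid sensors lay below the range by any amount. So did 8 of 18 transcription and signalling genes, 30 of 51 antiviral effectors, 7 of 9 GTPases and 3 of 4 chemokines. The share over all genes was 26.0%. After quantile normalization the counts were 4, 4, 7, 25, 7 and 2 in the same order, against 19.3% of all genes. All 4 chemokines read under 100 on every array. Among receptors, Ifngr1 read 149 on bone passage 6 and 210.3 to 313 elsewhere, a gap of -0.45, and Ifnar1 had one of -0.17, whereas Ifnar2 lay inside the range. Among signalling genes, Irf7, which amplifies interferon transcription, read 66.5, 224, 37.5, 108 and 197 in array order, a gap of -0.62. Stat2, Irf1 and Jak1 lay inside the range, at 34.9, 427 and 661 on bone passage 6.

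Of the effectors, Oasl2, a relative of the oligoadenylate synthetases, read 112, 303, 50.9, 287 and 587, a gap of -0.94. Bst2, or tetherin, which holds budding virus at the membrane, read 290.2, 529, 159, 472 and 1026, a gap of -0.80. Rsad2, or viperin, was dim, at 10.7 on bone passage 6 and 29.7 to 142 elsewhere, a gap of -0.78. Cxcl10, an interferon-induced chemokine for T cells, read 1.3 on bone passage 6 and 14.9 to 86.5 elsewhere, a gap of -0.84. Ifitm3, which blocks viral entry, and Ifit2 lay inside the range, at 2932 and 218 on bone passage 6. Chosen after their values were seen, Ifi27 had a gap of -0.90, Cmpk2 one of -0.95 and Xaf1 one of -0.80, while Zbp1 and Lgals3bp lay inside the range.

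Within the bone sub-line, 87 of the 98 genes were lower on passage 6 than on passage 3 (55.6% of all genes were). The median difference was -0.52, against -0.04 for all genes. The 58 genes below the range of all 4 other arrays are among the 87 by definition. Over all genes, the 3278 below the range are likewise among the 7005 that were lower on passage 6. Bone passage 3 was itself the highest of the 5 arrays for 17 of the 98, near the share over all genes, 20.0%. The T, B and NK markers, of which 14 had a probe set, summed to 519 on bone passage 3, 312 on bone passage 6 and 251 to 298 on the other arrays. The immunoglobulin gene Ighm made up 332 and 155 of the sums on the bone arrays, and without it they were 186 on bone passage 3, 158 on bone passage 6 and 172 to 205 elsewhere. Macrophage markers, given above, summed to 452 on bone passage 3. The part of such cells in the interferon values was not tested.

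The MHC class I genes, which interferon also induces, were counted apart. Of 16 measured, 1 lay below the range by any amount (26.0% of all genes did) and 2 above (17.2%), and the difference from the interferon lists was not tested. The one below was B2m, the light chain, at a gap of -0.16, and its further probe set lay inside the range. Psmb8, an immunoproteasome subunit, read 271 on the parental array, 1406 on bone passage 3, 1377 on bone passage 6, 1372 on liver passage 1 and 1973 on liver passage 3, so bone passage 6 read like the other sub-line arrays and the parental array was the low one. H2-K1 read 4251 on bone passage 6 and 3743 to 4595 elsewhere. Its further probe sets gave gaps of 0, -0.05 and -0.41.

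**Figure D4:**
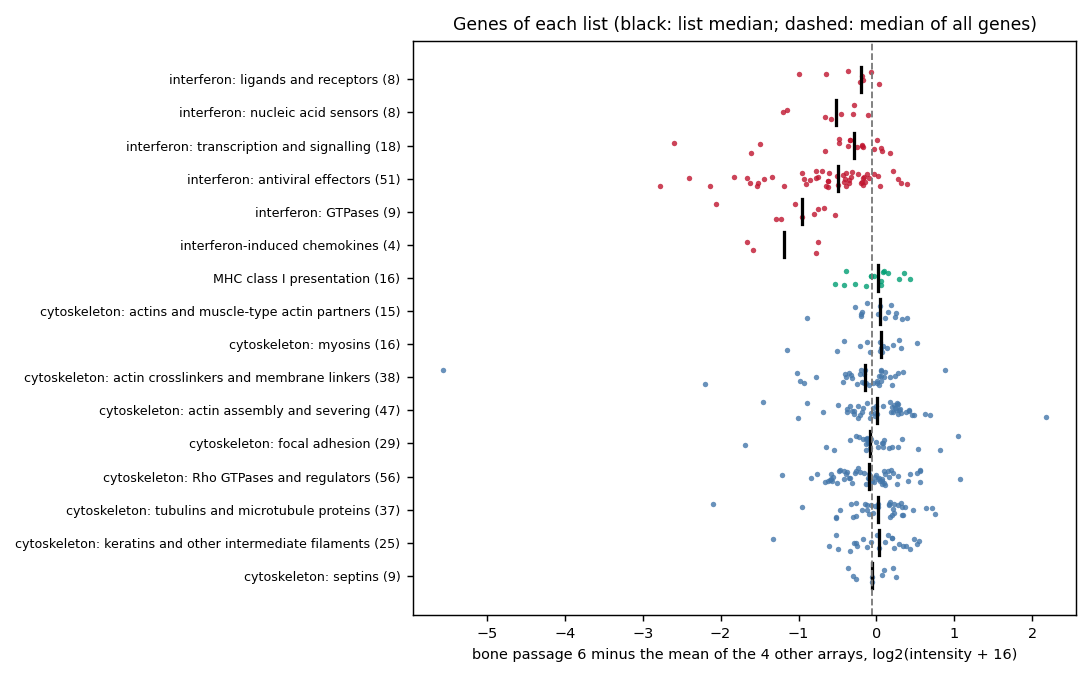
Bone passage 6 minus the mean of the 4 other arrays, on the log2(intensity + 16) scale, for each measured gene of the interferon, MHC class I and cytoskeletal lists (number of genes in brackets); black bars are list medians and the dashed line is the median of all genes, -0.05. The medians of the 6 interferon lists lie between -0.20 and -1.18, that of MHC class I is 0.01, and those of the cytoskeletal lists lie between -0.14 and 0.05 with single genes far to the left, the farthest being Marcks at -5.56.

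Promoters of the interferon genes were searched for the core of the element bound by the Irf9 complex, GAAA followed after any 2 bases by a second GAAA, on both strands (on the reverse strand it reads TTTC, any 2 bases, TTTC), counting overlapping matches. The window ran from 250 bases before to 50 after each gene's start in the RefSeq table of build GRCm38.p6. Of 80 interferon genes with a promoter, 32 (40.0%) held a match, against 3.99% of 27025 genes. The share was 45.7% for the 46 genes below the range by any amount and 32.4% for the 34 inside it. Of the 50 genes below the range by at least 1, 41 had a promoter and 3 held a match: Ifit1, Gbp3 and a predicted gene. Of the 11 above, 8 had a promoter and 1, Tgm1, held a match. Irf9 had no match, which says only that these letters are not in its window, and Rtp4 and Usp18 were not searched. The stretches below show the matches, in capitals, in genes from 3 groups: the members Ifit1 and Gbp3, the effector Rsad2 and the GTPase Irgm2, and the chemokine Cxcl10. Each is 100 bases, 5′ to 3′ along the gene's own strand. They come from chr19:34640755-34640854 (plus strand) for Ifit1, chr3:142559944-142560043 (plus strand) for Gbp3, chr12:26456503-26456602 (minus strand) for Rsad2, chr11:58214877-58214976 (plus strand) for Irgm2 and chr5:92349033-92349132 (minus strand) for Cxcl10.
Ifit1: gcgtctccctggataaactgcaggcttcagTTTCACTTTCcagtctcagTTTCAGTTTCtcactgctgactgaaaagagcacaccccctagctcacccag
Gbp3: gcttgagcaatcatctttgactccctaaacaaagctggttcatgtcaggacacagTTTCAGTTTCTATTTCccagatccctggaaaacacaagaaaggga
Rsad2: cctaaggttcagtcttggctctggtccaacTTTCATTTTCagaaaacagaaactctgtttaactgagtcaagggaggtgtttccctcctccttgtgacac
Irgm2: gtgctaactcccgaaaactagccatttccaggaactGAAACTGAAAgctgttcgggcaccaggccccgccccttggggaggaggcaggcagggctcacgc
Cxcl10: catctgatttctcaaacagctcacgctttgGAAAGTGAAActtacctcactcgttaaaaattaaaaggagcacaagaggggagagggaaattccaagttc

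Ifit1 and Gbp3 each hold 2 matches, which overlap in Gbp3, and the other three hold 1. Counted upstream from the gene's start, the first match begins at base 104 in Ifit1, 45 in Gbp3, 120 in Rsad2, 64 in Irgm2 and 213 in Cxcl10. A match is a description of the letters and no evidence of binding. Irgm2, a GTPase of the immunity-related family, read 92.7, 185, 58.2, 170.2 and 209 in array order, a gap of -0.55.

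Single cytoskeletal genes had wide gaps, while the lists together lay near the shares of all genes only by any amount and after quantile normalization. Of 272 measured, 5 lay below the range by at least 1 (1.84%, against 0.397% of all genes) and 0 above (0.0872% of all genes did). By any amount, 65 lay below (23.9%, against 26.0% of all genes) and 65 above (23.9%, against 17.2%), and after quantile normalization 52 and 53. The median difference from the mean of the other arrays was -0.01. By list, 19 of 47 actin assembly and severing genes lay above by any amount (40.4%, and 31.9% after quantile normalization, against 17.2% and 19.6% of all genes). Of 38 actin crosslinkers and membrane linkers, 10 lay below (26.3%) and 3 above (7.89%). Without the parental array 1 cytoskeletal gene lay above the range by at least 1, and without bone passage 3 there were 2.

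Marcks, described above, was 1 of the 5. Add3, the adducin chain that caps actin filaments and recruits spectrin, read 153 and 98.7 on the parental and bone passage 3 arrays, 19.4 on bone passage 6, and 139.5 and 216 on liver passages 1 and 3, a gap of -1.70. Its 3 further probe sets also lay below the range, at gaps of -0.52 to -1.06. The other adducins, Add1 and Add2, and the Marcks relative Marcksl1 lay inside the range.

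Dclk1, a microtubule-binding kinase, read 74.6, 77.5, 19.5, 206 and 263 in array order, a gap of -1.35, with the liver arrays highest. Its 5 further probe sets had gaps of -0.08 to -0.99, and the mean of its probe sets one of -0.76. Fhl1, a LIM-domain protein of focal adhesions, read 237, 63.9, 17.8, 68.6 and 65.2, a gap of -1.24, with the parental array highest. Its further probe set read 27.6 on bone passage 6 and 20.3 to 26.7 elsewhere, just above the range, and the mean of its probe sets gave a gap of -0.50. Myo7a, an unconventional myosin named after its value was seen, read 102 to 122 on the other arrays and 41.7 on bone passage 6, a gap of -1.03 that was -0.87 after quantile normalization.

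Outside the lists, and chosen for this role after their values were seen, Dmd and Coro2b also act on actin. Dmd, or dystrophin, which ties actin to the membrane, read 104, 31.1, 0.9, 126 and 60.1, a gap of -1.48, and its further probe set that passed the filter gave -1.34. Coro2b, a coronin, had a gap of -1.27. Ppp1r12b, above the range on 1 probe set, acts on myosin.

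Among cytoskeletal genes short of the threshold, Vim, the mesenchymal intermediate filament vimentin, read 5740.2 on the parental array, 3525 on bone passage 3, 1818 on bone passage 6, 4553 on liver passage 1 and 4769 on liver passage 3. Its gap was -0.95, or -1.03 after quantile normalization. With the authors' scaling its further probe sets gave -0.83 and -1.08, the latter past the threshold. The actin-severing protein Gsn had a gap of -0.61 and Pfn2, a profilin, one of -0.60. The actin bundler Lcp1 read 1101 on the parental array, 439 on bone passage 3, 201 on bone passage 6 and 238 to 244 on the liver arrays, a gap of -0.22.

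On the other side, Capzb, a subunit of the actin capping protein, read 730 and 717 on the parental and bone passage 3 arrays, 1077 on bone passage 6, and 521 and 708 on liver passages 1 and 3, a gap of 0.55. Cdc42ep2 and Csrp2, both dim, had gaps of 0.56 and 0.51. Gaps of the abundant structural genes were small: Krt8 had a gap of 0.22 and Krt18 one of 0.10, and Actg1 one of 0.15, while after quantile normalization Krt18 and Actg1 lay inside the range. Tpm1, Tpm2 and Acta2 lay inside the range.

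**Figure D5:**
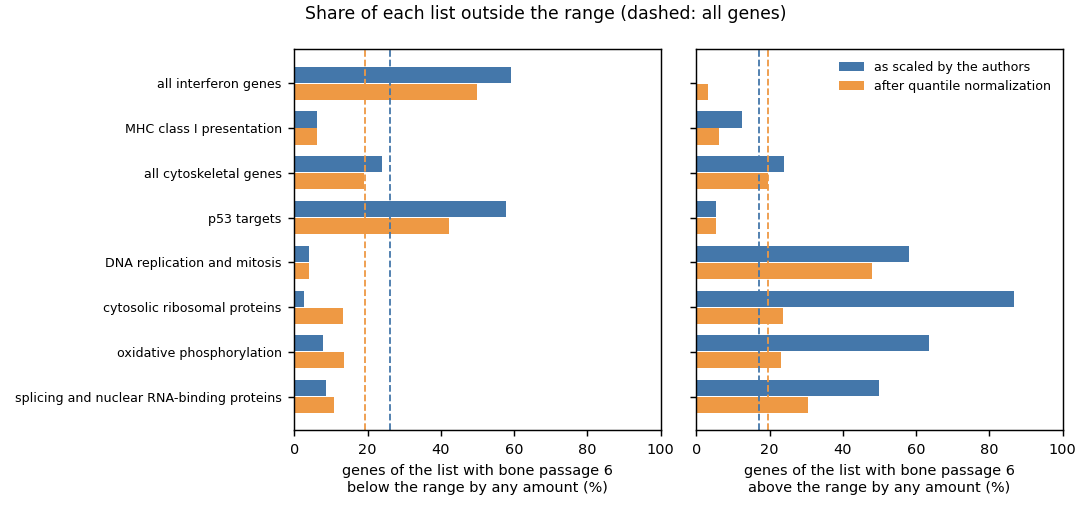
Share of the genes of 8 lists with bone passage 6 below (left) or above (right) the range of the 4 other arrays by any amount, in percent, with the authors' scaling (blue) and after quantile normalization (orange); dashed lines give the share of all genes. Interferon genes are at 59.2% below, and 49 of the 98 are below after quantile normalization, cytoskeletal genes close to the dashed lines, and ribosomal protein genes at 86.8% above, which is 23.7% after quantile normalization.

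Among the other lists, genes of DNA replication and mitosis were placed high on bone passage 6, with no single wide gap. Of 50 measured, 29 lay above the range by any amount (58.0%, against 17.2% of all genes) and 24 after quantile normalization, and the median difference from the other arrays was 0.38. Uhrf1, which keeps DNA methylation through replication, read 840.1, 742, 1354, 479.5 and 946 in array order, a gap of 0.51. The replication helicase subunit Mcm2 had a gap of 0.37. Mki67, the proliferation marker, lay inside the range, at 703 on bone passage 6 and 495 to 746 elsewhere. Of 19 p53 targets, 11 lay below the range by any amount (57.9%, against 26.0%) and 8 after quantile normalization, while Cdkn1a lay inside it.

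With the authors' scaling, 33 of 38 ribosomal and 33 of 52 respiratory chain genes lay above the range by any amount (17.2% of all genes did), and 35 and 39 after median centring. After quantile normalization they were 9 and 12, or 23.7% and 23.1%, near the 19.6% of all genes. Their gaps were small, with median differences from the other arrays of 0.18 and 0.24, and 0.02 and 0.12 after quantile normalization. Single genes short of the threshold included Plaur, the urokinase receptor, at 0.88, the chemokine Ccl9 at 0.71, the gelatinase Mmp9 at 0.62 and Wnt10a at 0.67. Below were the transcription factors Cebpd at -0.87 and Egr1 at -0.76, and the apoptosis inhibitor Birc3 at -0.69. These 7 were chosen after their values were seen.

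The same rule was turned on 2 of the other arrays. On bone passage 3, 50 genes lay above and 4 below the range of the remaining arrays, and on liver passage 1, 32 above and 34 below. Bone passage 6 had 11 above and 50 below. Of its 61 genes, 1 was also outside the range by at least 1 on bone passage 3 and 1 on liver passage 1. Of all 12609 genes, 54 and 66 were. Bone passage 6 is the highest or lowest array for each of the 61 genes. Another array could therefore lie outside only on the opposite side, so the choice of genes itself limits this overlap. Among interferon genes, 17 lay above and 4 below by any amount on bone passage 3, and 17 above and 9 below on liver passage 1. Of all genes, 19.9% lay above and 16.1% below by any amount on bone passage 3, and 24.7% and 23.7% on liver passage 1. Below by at least 1 were 0 interferon genes on either array, and 4 and 34 of all genes. Bone passage 6 was already the lowest array for 58 of the 98 interferon genes, which limits how many could be lowest on another array. These counts share the same 5 arrays and are given side by side, with no test of their difference.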

How the data were processed

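Total RNA (5 ug per sample, per the labels' protocols) was measured on 5 one-colour Affymetrix mouse arrays. The authors deposited 1 linear intensity per probe set for each of 45101 probe sets. RMA is named in the submitters' processing notes, with a version not given in the sources used here, but the deposited intensities are not on RMA's log2 scale: their 2% trimmed mean is 150 on each array, as a global scaling leaves it. Probe sets were named from the platform annotation, updated to RefSeq names of assembly GRCm38.p6; 34958 had 1 gene, 932 several and 9211 were not listed. Control probe sets (64) and those with several genes or none were left out of gene counts. Probe sets whose highest intensity was under the median of all values, 25.1, were dropped. Of those remaining, the brightest on average represented its gene, giving 12609 of 18193 genes.

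Intensities were taken as log2(intensity + 16), which understates the change of dim genes. The gap was computed against the highest and lowest of the 4 other arrays, with python 3.11.15, numpy 2.4.6 and pandas 2.3.3, and the counting was checked on simulated data. With 1 array a group, the number of arrays limits the precision. The members, the 65 gene lists and 3 lists added later were chosen with earlier results of these data known. Named were up to 25 genes a direction with the largest gaps that also passed after quantile normalization, up to 12 such members of each list, 3 genes on each side of the threshold and 39 set genes, of which 34 were measured. Genes named beyond this were chosen after their values were seen. The alternatives tried were quantile and median normalization, pseudocounts of 1 and 64, no filter or one on the mean, other uses of probe sets, other thresholds, and each other array left out.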

Additional observations from a re-analysis of the deposited data

How the results depend on the processing

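The counts of 11 genes above and 50 below the range became 21 and 194 with a pseudocount of 1, 3 and 9 with 64, 2 and 11 at a threshold of log2(3) and 40 and 186 at log2(1.5). No member was called the other way in any setting tried. Another pseudocount or threshold, or leaving out another array, cannot reverse a call, so only the other settings could have shown it. Where all probe sets of a gene had to pass, 33 lay below. With 1 of the other arrays left out, 12 to 53 lay above and 58 to 111 below. The wide ends are without bone passage 3 (53 and 111), and without the parental array 77 lay below. Of the interferon genes, 5 below by at least 1 became 3 after quantile normalization, 12 and 1 with pseudocounts of 1 and 64, 1 and 17 at log2(3) and log2(1.5), and 5 to 18 with an array left out, the 18 without the parental array. None lay above by any amount, but 3 did after quantile normalization, 4 after median centring, 1 without a filter, and 1 to 2 with an array left out. Of the cytoskeletal genes, 5 below by at least 1 became 1 with a pseudocount of 64, 3 with the mean of probe sets, 2 where all probe sets had to pass, and 2 and 10 at log2(3) and log2(1.5). With an array left out, 0 to 2 lay above. Ribosomal genes above by any amount went from 33 to 9 and respiratory chain genes from 33 to 12 after quantile normalization, and the latter to 18 where all probe sets had to pass. Of 963 gaps of 81 named genes recomputed, 838 moved by less than the SD of the 4 other arrays and 125 by more. That SD spans different cell populations, so a gene could lose its call and still be among the 838. Prom1, with an SD of 1.75, went from -1.21 to -0.48 with a pseudocount of 64. A change of sign was looked for only in the 45 named genes with a gap of at least 1, and 0 of them showed one. The pseudocounts and the left-out arrays could not have given one. Signal over background limits the low side, since 35 of 50 genes read under 25.1 on bone passage 6. No paired analysis was possible because every group has 1 array.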

Other observations

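Probe sets that the annotation gives several genes or none were counted apart. Of 3166 that passed the filter, 7 (0.221%) lay below the range by at least 1 and 5 (0.158%) above, and 5 and 4 did so also after quantile normalization. The widest of these, below the range, read 192 on the parental array, 405 on bone passage 3, 41.9 on bone passage 6, 285 on liver passage 1 and 488 on liver passage 3. Their genes are not named here.

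Adcy1 and Igfbp3, both below the range, are neighbours in the RefSeq table with 1 protein-coding gene, Igfbp1, between them. Irf9, below, and Tgm1, above, have 8 protein-coding genes between them. Of these 8, Tinf2, Mdp1, Tssk4 and Ipo4 lay inside the range and Nedd8 lay 0.05 above it. Marcks lies next to Hdac2, which read 1305 on bone passage 6 and 1040.3 to 1434 elsewhere, inside the range.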
